A study of Mus musculus with 52 samples.

Results

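The genes described here are 10 transcripts that mouse neutrophils and their precursors use to fill their granules or that mark the neutrophil lineage: Mpo, Elane, Prtn3, Ngp, Camp, Ltf, S100a8, S100a9, Ly6g and Retnlg. They were taken by gene name, and all 10 had a row among the 26391 genes listed in spleen, of which 17260 reached a mean of 1 TPM in either genotype. TPM (transcripts per 1000000, the usual scaled unit) is a level corrected for transcript length, so levels of different genes can be set side by side. All 10 genes passed 1 TPM in spleen.

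Poly(A) RNA was sequenced from spleens of male mice that lack the Tug1 long noncoding RNA locus on both alleles (Tug1-/-) and of male wild-type mice, 3 libraries each. Both groups were on a mixed C57BL/6J/129S6 background (N3-C57BL/6J, without the Neo cassette, strain Tug1_tm1.1Vlcg). The mutant allele retains the Tug1 promoter with exon 1 and has a lacZ reporter where the gene body was. The deletion was present in every cell of the animal, so blood, marrow and spleen stroma all carried it, and the labels give no age for the mice. The same 2 genotypes were compared in eyes, heart, liver and male embryonic fibroblasts (MEFs, cells cultured from embryos) with 3 libraries per group, in prostate with 3 wild-type and 2 Tug1-/- libraries, and in testes with 4 libraries each. Testes had a further group of 3 rescue mice, which were Tug1-/- and carried a doxycycline-inducible Tug1 transgene with the CAGs-rtTA3 activator. By the authors' account the rescue mice were kept on food with doxycycline. By the labels, Tug1-/- and rescue testes carried Neo and LacZ, and wild-type testes were without Neo.

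Neutrophils are made in marrow, and in mice also in the spleen, from precursors that pass through stages named for the granules they are filling. Promyelocytes make the azurophil (primary) granules with their peroxidase and serine proteases, myelocytes and metamyelocytes then make the specific (secondary) granules with antimicrobial proteins, and the later cells stop transcribing both sets while their proteins stay stored. The 2 subunits of calprotectin, a cytosolic calcium- and zinc-binding protein, are transcribed over a longer span, and receptors for chemokines and growth factors mark the mature cell.

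Every value given for a gene is a group mean computed by the authors, since the tables used here hold no single libraries. The tables' own comparison columns, with standard errors and p-values, were left out by choice, so no error or test is given for any difference. The depth of each library is unknown, and statements on height compare 2 means. The ratio used throughout is the Tug1-/- mean over the wild-type mean. On the log2 scale 0.1 TPM was added to both means, which understates ratios of genes at low levels. A gene was counted as higher or lower when that ratio passed 1.5-fold. In a whole organ, more cells of a type and more RNA per cell cannot be told apart.

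Tug1 served as the check of the labels. It averaged 53.8 TPM in wild-type against 0.0608 TPM in Tug1-/- spleen, and in the other tissues Tug1-/- libraries kept between 0.0825% and 2.21% of the wild-type mean. Spleen markers were present in both genotypes, with Cd79a of B cells at 1295 and 947 TPM and Spic of red pulp macrophages at 105 and 100.4 TPM. RNA of the neighbouring pancreas was not even between the groups. The 14 pancreas genes examined, digestive enzymes such as Clps and Cela3b, summed to 82.0 TPM in wild-type against 11787 TPM in Tug1-/- spleen, which was 0.00820% and 1.18% of all TPM. None was at 0 in either group. Wild-type spleen held 16.4 TPM of Alb, the liver's albumin, against 0.0843 TPM in Tug1-/- spleen. The log2 ratios of all 17260 genes had a median of -0.11, and with that median set to 0, 6.77% of these genes were past 1.5-fold higher and 3.22% lower.

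All members but Retnlg stood higher in Tug1-/- spleen and Retnlg itself stood lower. Counted past 1.5-fold, 9 of the 10 genes were higher and 0 were lower, where 5.40% of all 17260 genes were higher and 5.07% were lower. The median log2 ratio of the 10 genes was 1.44, a ratio of 2.72. Past 2-fold, 8 of the 10 were higher, against 2.16% of all genes. Together the 10 genes took 1697 TPM in wild-type against 3464 TPM in Tug1-/- spleen. The part that pancreas RNA had in these values was not tested, and with the 14 pancreas genes taken out of the totals the median log2 ratio of the members was 1.46.

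**Figure D1:**
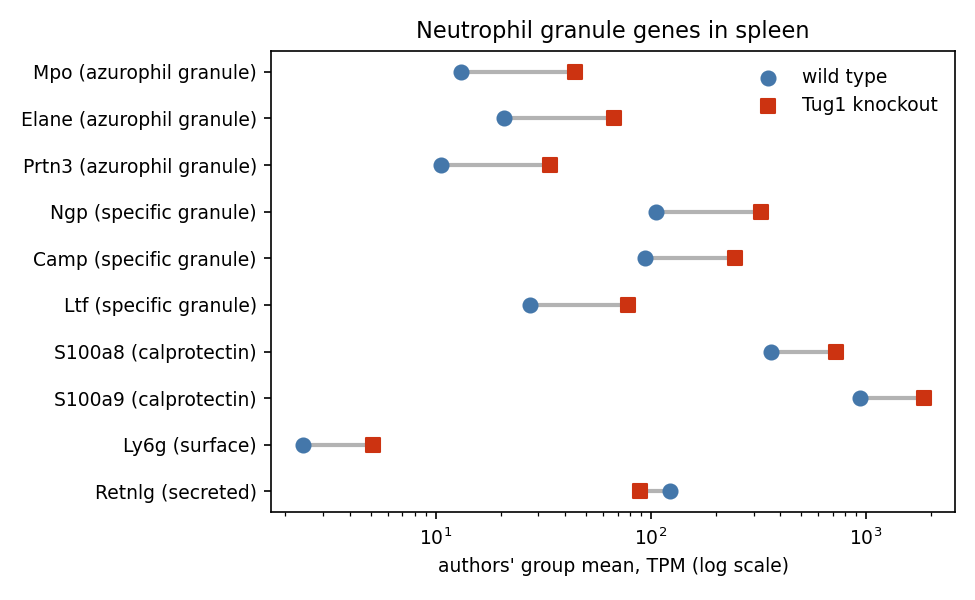
Group means of the 10 granule genes in spleen, in TPM on a log axis, with wild type as blue circles and Tug1-/- as red squares joined by a grey line for each gene. Red squares lie to the right of their circle for 9 genes, and for Retnlg, at 122.7 and 88.8 TPM, the square lies to the left.

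The azurophil granule genes had the widest separation. Mpo, myeloperoxidase, which makes hypochlorous acid from hydrogen peroxide, had a mean of 13.1 TPM in wild-type against 44.5 TPM in Tug1-/- spleen, a ratio of 3.41. Elane, neutrophil elastase, had 20.8 and 67.7 TPM, a ratio of 3.25. Prtn3, proteinase 3, a serine protease of the same granule, had 10.6 and 33.9 TPM, a ratio of 3.21. The 3 ratios lay closer to each other than to those of the calprotectin genes, and the 3 genes kept nearly the same order and spacing within each genotype. The Elane mean was 1.59 times the Mpo mean in wild-type and 1.52 times in Tug1-/- spleen. Mpo stood at rank 86, Elane at 96 and Prtn3 at 100 when the 17260 genes were ordered from the highest log2 ratio downward. The places above them include the 13 pancreas genes that reached 1 TPM, with log2 ratios between 4.74 and 10.15.

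Elane and Prtn3 are neighbours on chromosome 10, at 79886247 to 79888215 and 79874476 to 79883174 of GRCm38, both on the plus strand and 3072 bases apart. Mpo lies on chromosome 11 at 87793581 to 87804413. Promoter windows of RefSeq, which run from 250 bases before to 50 after each transcription start, were available for all 10 genes on the same assembly (GRCm38.p6). The letters AGGAAGT, a core that ETS-family factors such as PU.1 bind, were searched on both strands. They occurred in the windows of Mpo, Elane, Prtn3, S100a8 and Ly6g, 5 of the 10 genes, and in 9.35% of all 32851 windows. Some genes have several windows (Ly6g has 2). The letters TTGCNNAA, which resemble a site of C/EBP factors, occurred in those of Ngp, Ltf, S100a9, Ly6g and Retnlg, also 5 of 10, and in 10.8% of all windows. The motifs do not share bases in any of these windows.

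The stretches of 5 windows that lie outside every exon of GENCODE M21 are shown for the 3 azurophil genes with the highest ratios, for Ngp with the highest ratio of the specific granule genes, and for Retnlg with the ratio below 1. They are written 5′ to 3′ on the gene's strand and capitals mark the searched motifs. The Prtn3 stretch lies inside the annotated span of the gene, between exons, and the others end at the base before the gene. A match of letters is a description of the sequence, and no binding was measured.
Mpo, chr11:87793534-87793580, plus strand: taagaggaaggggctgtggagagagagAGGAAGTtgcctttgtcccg
Elane, chr10:79886062-79886246, plus strand: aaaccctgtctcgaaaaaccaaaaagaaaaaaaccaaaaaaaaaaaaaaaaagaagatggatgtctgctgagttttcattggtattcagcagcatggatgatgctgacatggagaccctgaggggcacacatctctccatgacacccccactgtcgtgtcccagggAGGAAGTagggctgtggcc
Prtn3, chr10:79879417-79879613, plus strand: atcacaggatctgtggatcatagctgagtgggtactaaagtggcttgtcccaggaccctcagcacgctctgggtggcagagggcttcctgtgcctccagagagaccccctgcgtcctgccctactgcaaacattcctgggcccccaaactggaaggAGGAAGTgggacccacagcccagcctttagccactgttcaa
Ngp, chr9:110419558-110419746, plus strand: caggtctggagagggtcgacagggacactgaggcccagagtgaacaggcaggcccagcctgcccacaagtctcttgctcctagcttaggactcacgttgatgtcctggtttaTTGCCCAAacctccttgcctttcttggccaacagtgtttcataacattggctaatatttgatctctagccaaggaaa
Retnlg, chr16:48872358-48872607, plus strand: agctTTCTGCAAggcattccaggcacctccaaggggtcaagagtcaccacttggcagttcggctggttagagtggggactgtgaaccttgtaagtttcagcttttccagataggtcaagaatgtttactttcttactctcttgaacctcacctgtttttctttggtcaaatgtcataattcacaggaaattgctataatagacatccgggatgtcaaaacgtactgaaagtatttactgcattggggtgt

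The Mpo, Elane and Prtn3 stretches each hold AGGAAGT on the gene's own strand, at bases 28, 167 and 157 of the RefSeq window. The Ngp stretch holds TTGCNNAA at base 113. The Retnlg stretch holds the reverse complement of TTGCNNAA at base 5, so the gene with the opposite direction shares this motif with genes whose mean was higher.

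Specific granule genes came next. Ngp, neutrophilic granule protein, a cystatin-like protein, had a mean of 105 TPM in wild-type against 324 TPM in Tug1-/- spleen, a ratio of 3.08. Ltf, lactoferrin, which binds iron, had 27.5 and 78.0 TPM, a ratio of 2.84. Camp, the cathelicidin from which an antimicrobial peptide is cut, had 94.0 and 246 TPM, a ratio of 2.62. All 3 had a ratio above those of calprotectin, and below those of Mpo, Elane and Prtn3. They lie on chromosome 9 at 109847379 to 109849617 on the minus strand (Camp), 110419747 to 110423012 (Ngp) and 111019271 to 111042767 (Ltf), with 570.1 and 596.3 kb between neighbours. Their scaled read counts, averaged over the 6 spleen libraries, were 1977 for Camp, 4023 for Ngp and 2792 for Ltf.

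Calprotectin gave the most abundant transcripts. S100a8 had a mean of 362 TPM in wild-type against 724 TPM in Tug1-/- spleen, a ratio of 2.00. S100a9 had 939 and 1852 TPM, a ratio of 1.97, which lies just under the 2-fold limit while S100a8 lies just over it. The 2 genes, 22.6 kb apart on chromosome 3 (90668978 to 90670035 and 90692632 to 90695721), encode the partners of a heterodimer, and the S100a9 mean was 2.59 times the S100a8 mean in wild-type and 2.56 times in Tug1-/- spleen. They carried 1301 of the 1697 TPM of all 10 genes in wild type, so the summed level of the 10 genes followed these 2 and had a ratio of 2.04.

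Ly6g, the surface antigen by which mouse neutrophils are sorted, was the lowest of the 10, with 2.40 TPM in wild-type against 5.08 TPM in Tug1-/- spleen, a ratio of 2.12. Its scaled read count averaged 54.0, and it belongs to a family of similar genes on chromosome 15 (75155240 to 75159126). The authors counted uniquely mapped reads, so reads shared with similar Ly6 genes may be missing from it.

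Retnlg, a resistin-like secreted protein of mature neutrophils (chromosome 16, 48872608 to 48874498), had 122.7 TPM in wild-type against 88.8 TPM in Tug1-/- spleen, a ratio of 0.724. It did not pass 1.5-fold and stood at rank 15775 of 17260. In wild-type spleen the Camp mean was 0.766 times the Retnlg mean, and in Tug1-/- spleen it was 2.77 times. Relative to S100a8, Retnlg stood at 33.9% in wild-type and 12.3% in Tug1-/- spleen, while Mpo stood at 3.60% and 6.14%. Relative to S100a8, Mpo thus stood higher and Retnlg lower in the Tug1-/- mean than in the wild-type mean, with no error for either. This covers the members named here and not neutrophil transcripts in general.

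**Figure D2:**
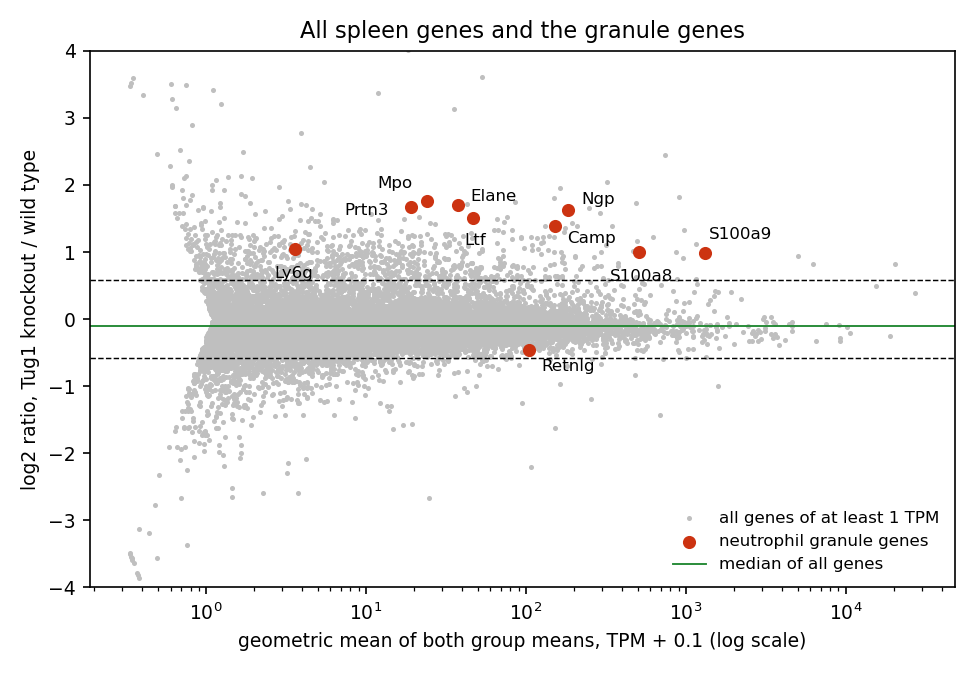
Log2 ratio of Tug1-/- over wild-type mean in spleen against the geometric mean of both means (TPM + 0.1, log axis) for 17260 genes in grey and the 10 granule genes in red. Dashed lines mark 1.5-fold, the green line marks the median of all genes at -0.11, and 50 genes lie beyond the plotted range of 4 on the log2 scale. Of the red points, 9 lie above the upper dashed line and Retnlg lies between the lines.

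Other neutrophil genes, grouped by stage in lists of known genes, did not all follow the 10. Of the 13 azurophil and early neutrophil genes that reached 1 TPM, 6 were higher and 0 lower, with a median log2 ratio of 0.56. Over all spleen genes 5.40% were higher and 5.07% lower. Fcnb, a ficolin of early neutrophils, had means of 6.16 and 18.5 TPM, and Ctsg, cathepsin G of the azurophil granule, had 12.7 and 36.5 TPM. Ms4a3, a membrane protein of granulocyte-monocyte precursors, had 2.78 and 7.87 TPM. Prss57, a further azurophil serine protease, had 0.555 and 1.46 TPM. It reached 1 TPM only in Tug1-/- spleen, where it was higher, so its place in the count was set by its own difference. The 4 genes had ratios between 2.63 and 3.01, while 7 of the 13 did not pass 1.5-fold, among them Serpinb1a (269 and 227 TPM) and Cd63 (70.1 and 61.4 TPM), which were named after their values were seen.

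Of 20 specific and gelatinase granule genes, 7 were higher and 0 lower, with a median log2 ratio of 0.09. Over all spleen genes 5.40% were higher and 5.07% lower. Among the 7 was Olfm4, with 0.918 and 1.56 TPM, named after its values were seen. It reached 1 TPM only in Tug1-/- spleen, so its place in the count was set by its own difference. Itgb2l, an integrin beta subunit of neutrophils, had 1.64 and 4.98 TPM. Chil3, a chitinase-like protein, had 44.6 and 128.6 TPM, and Lcn2, the siderophore-binding lipocalin of the specific granule, had 16.4 and 44.1 TPM. Mmp8, neutrophil collagenase, had 6.08 and 12.1 TPM. Mmp9, the gelatinase of the last granules to be filled, had 20.0 TPM in wild-type against 16.6 TPM in Tug1-/- spleen, and was named after its values were seen. Lyz2, Cyba and Cybb, which macrophages also express at high level, are on this list and had ratios of 0.927, 0.892 and 0.877. Pglyrp1, Padi4, Lrg1 and Adam8 did not pass 1.5-fold either, with ratios of 1.08, 1.04, 1.19 and 0.863. They were named after their values were seen, and the part of macrophages in the list was not tested.

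Of 21 mature neutrophil genes that reached 1 TPM, 2 were higher and 1 was lower, with a median log2 ratio of 0.20. These counts lie near the shares of all spleen genes, 5.40% and 5.07%. Il1b, the cytokine interleukin 1 beta, which monocytes also make, had 68.2 TPM in wild-type against 34.2 TPM in Tug1-/- spleen. The higher genes were Stfa3, a stefin, with 1.36 and 2.68 TPM, and Wfdc21, with 27.2 and 46.8 TPM. Cxcr2, the chemokine receptor by which mature neutrophils leave the marrow, had 30.2 and 26.7 TPM, and Csf3r, the receptor for granulocyte colony-stimulating factor, had 39.6 and 38.9 TPM. The 2 receptors thus had ratios of 0.883 and 0.982. Across the list, 13 of the 21 genes had a log2 ratio above 0 and 8 below.

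Among 12 transcription factors of granulocyte development, 1 was higher and 0 were lower, near the 5.40% and 5.07% of all spleen genes, and the median log2 ratio was -0.06. The gene counted was Cebpe, which drives the specific granule programme, with 3.61 TPM in wild-type against 6.17 TPM in Tug1-/- spleen. Cebpe also stands on the azurophil and early neutrophil list and was counted there too. Myb, a factor of cycling precursors, had 12.03 and 17.8 TPM, a ratio of 1.48. Of 6 neutrophil cytokines and chemokines at 1 TPM or more, only Ppbp was past 1.5-fold, with 331 and 669 TPM. Ppbp is also the platelet chemokine and stands on the megakaryocyte list. Csf3, granulocyte colony-stimulating factor, was below 0.1 TPM in both genotypes and was named after its values were seen.

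**Figure D3:**
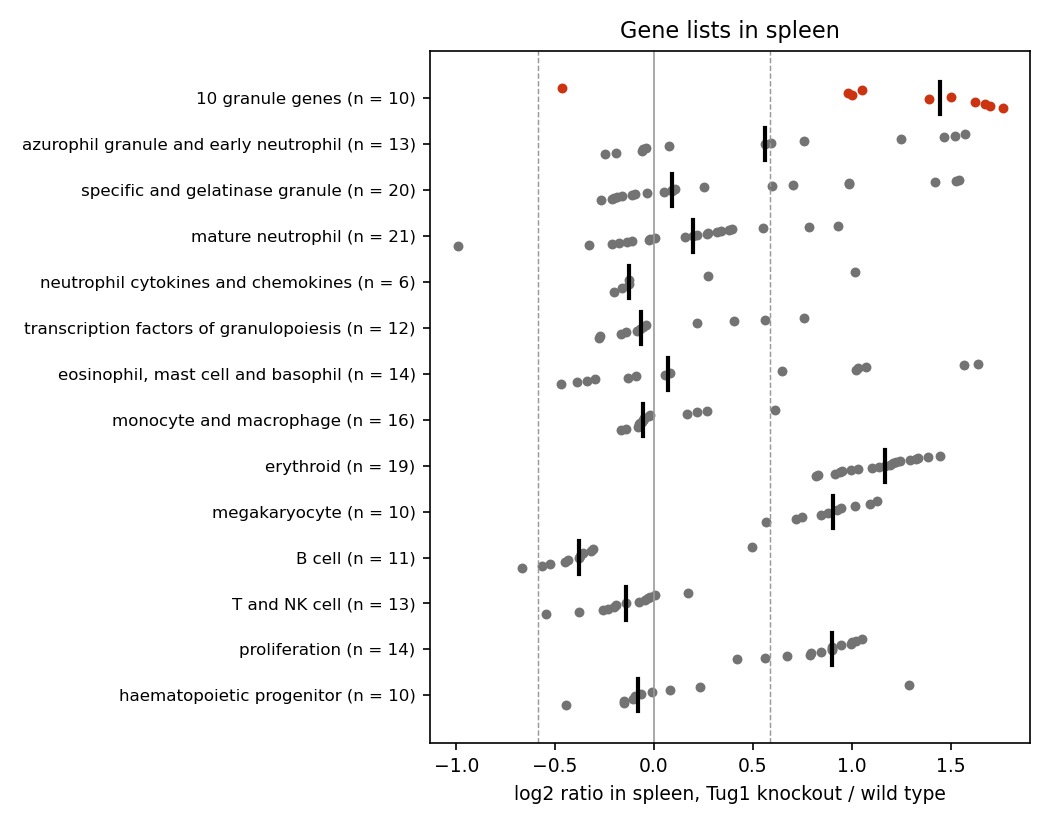
Log2 ratio of Tug1-/- over wild-type mean in spleen for each gene of at least 1 TPM, by list, with the 10 granule genes in red, a black bar at each median and dashed lines at 1.5-fold. The 10 granule genes (median 1.44), the erythroid genes (1.17), the megakaryocyte genes (0.90) and the proliferation genes (0.90) sit to the right, and the B cell genes (-0.38) to the left, with the pancreas genes (median 9.27) left out for scale.

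The erythroid, megakaryocyte and proliferation lists also had medians well above that of all genes. Beside the counts of these lists stand the shares of all spleen genes past 1.5-fold, 5.40% higher and 5.07% lower. All 19 erythroid genes measured were higher past 1.5-fold, with a median log2 ratio of 1.17 and a summed level of 26530 TPM in wild-type against 48561 TPM in Tug1-/- spleen. Rhag, a red cell membrane protein, had 44.1 and 120.2 TPM. Klf1, the erythroid transcription factor, had 51.5 and 129.3 TPM. Of 10 megakaryocyte genes 9 were higher, with a summed level of 644 and 1232 TPM, and Treml1, a receptor of platelet granules, had 19.3 and 37.2 TPM. Of 14 proliferation genes 12 were higher, with a summed level of 767 and 1311 TPM, and Mki67 had 116.9 and 233 TPM. Against these, 10 of 11 B cell genes had a log2 ratio below 0, although only Fcer2a, the low-affinity IgE receptor, passed 1.5-fold, with 371 and 233 TPM. Ighm was the exception with 13038 and 18346 TPM. The 13 T and NK cell genes had a median log2 ratio of -0.14, the 16 monocyte and macrophage genes -0.05 and the 10 haematopoietic progenitor genes -0.08, each with at most 1 gene past 1.5-fold. On the progenitor list that gene was Tal1, which erythroid cells share, with 29.1 and 71.2 TPM. The part of these cell types in the values of the granule genes was not tested.

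In level over the 12 group means of 6 tissues (testes and brain not included), Trim5, Gm44401, Trim58, Gm38118 and Epor had the highest Pearson correlation with the mean profile of the 10 genes, between 0.987 and 0.991. Trim58 and Epor, the erythropoietin receptor, had ratios of 2.32 and 1.94 in spleen, whereas Trim5 had 0.841. These correlations describe 12 points in which spleen stands far from the other tissues, and a gene with no row in a tissue was set to 0 TPM there, as were 7 of the 10 members in prostate and MEFs, so they say mainly that these genes were high in spleen. The planned ranking by log2 ratio over the tissues is not given, because the same fill set the members' median to 0 in those 2 tissues.

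Outside spleen the granule genes were sparse. Heart had the next highest sum over the 10 genes, 53.5 TPM in wild-type against 44.3 TPM in Tug1-/- mice. S100a9 had a mean of 31.6 TPM in wild-type against 29.5 TPM in Tug1-/- heart, S100a8 had 13.5 and 9.12 TPM, and Retnlg had 7.65 and 5.35 TPM. The other 3 listed genes, Ltf, Prtn3 and Ngp, stayed below 0.4 TPM, and Mpo, Elane, Camp and Ly6g had no row. In heart, then, the calprotectin genes and Retnlg were present with almost none of the granule protein transcripts. Retnlg stood at 56.5% of S100a8 in wild-type and 58.6% in Tug1-/- heart, against 33.9% and 12.3% in spleen. Of the 3 members that reached 1 TPM in heart, 0 were higher and 0 lower, where 2.08% and 2.49% of all heart genes were. Hbb-bs, a beta globin of red cells, had 29200 and 23318 TPM in heart, a ratio of 0.799, and B cell genes were lower too, with Cd79a at 12.5 and 5.91 TPM. The part of blood held in the organ was not tested.

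In eyes, 5 of 9 listed members reached 1 TPM. S100a9 had 5.22 TPM in wild-type against 14.02 TPM in Tug1-/- eyes, S100a8 had 1.10 and 4.201 TPM, and Ltf had 3.52 and 7.56 TPM. Prtn3 had 0.654 and 1.04 TPM, and Camp had 2.35 and 1.40 TPM. So 4 were higher and 1, Camp, was lower, where 3.19% of all eye genes were higher and 4.68% lower. Prtn3 reached 1 TPM only in Tug1-/- eyes, where it was higher, so its place in the count was set by its own difference. Mpo, Elane and Ngp were all under 0.13 TPM, so these eye values hold few reads of the genes that differed most in spleen. Blood genes were higher in the same comparison, with Hbb-bs at 439 and 1396 TPM and Alas2, the erythroid enzyme that begins haem synthesis, at 17.5 and 49.6 TPM. Their part in the eye values was not tested. Retnlg had 0.832 and 0.737 TPM in eyes.

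In liver, S100a9 had 1.61 TPM in wild-type against 2.76 TPM in Tug1-/- mice, S100a8 had 0.668 and 1.14 TPM, and Retnlg had 1.11 and 0.777 TPM. Of these 3 genes, the only ones to reach 1 TPM, 2 were higher and 0 lower, where 3.37% and 2.65% of all liver genes were. S100a8 and Retnlg reached 1 TPM only in the genotype where each was higher, so the count is no support for a direction. The scaled read counts of S100a8, S100a9 and Retnlg averaged 11.2, 20.4 and 10.3. Hbb-bs had 436 and 443 TPM in liver. Prostate and MEFs listed 3 members each, all below 1 TPM in both genotypes, with the highest mean at 0.737 TPM for Ltf in Tug1-/- prostate. Ly6g had a row in spleen alone.

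**Figure D4:**
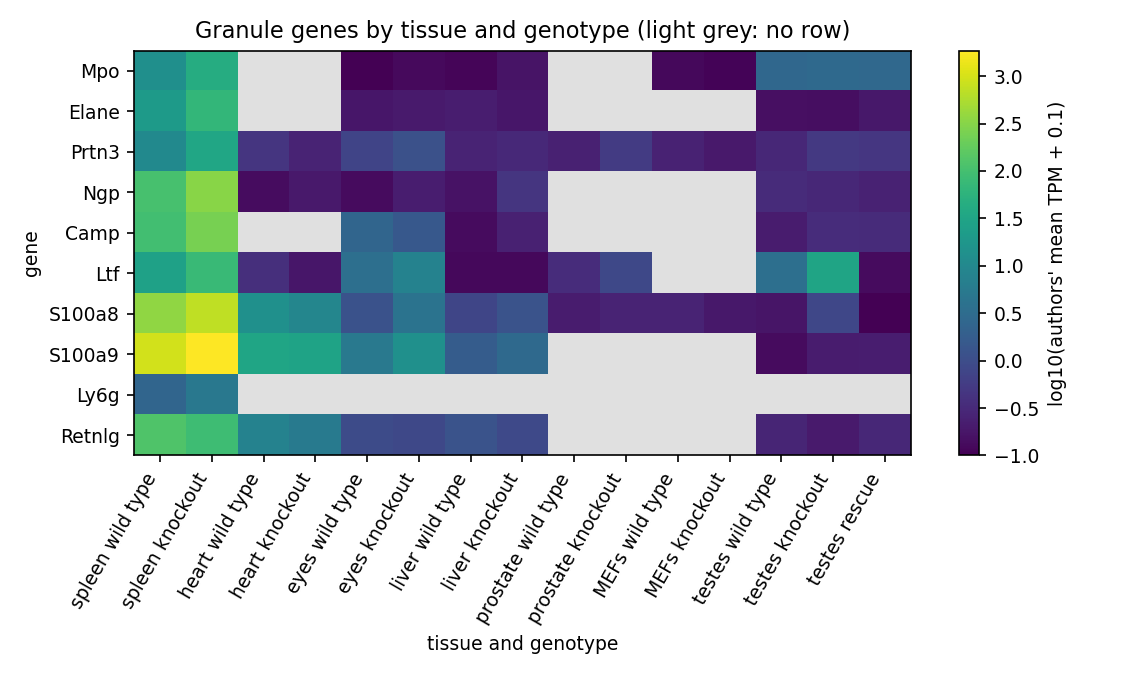
Group means of the 10 granule genes by tissue and genotype, coloured by log10 of TPM + 0.1, with light grey where a gene has no row in a tissue. Both spleen columns are brighter than those of each other tissue for every gene but Ltf, whose mean in Tug1-/- testes (30.9 TPM) lies above that of wild-type spleen (27.5 TPM).

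Testes gave low values for all but Ltf and Mpo. Mpo had 2.57 TPM in wild-type, 2.82 TPM in Tug1-/- and 2.70 TPM in rescue testes. Ltf, which secretory epithelium of the male tract also makes, had 3.46 TPM in wild-type, 30.9 TPM in Tug1-/- and 0.0316 TPM in rescue testes. Of the 2 members at 1 TPM or more, 1 was higher in Tug1-/- testes and 0 were lower, where 2.75% of all testis genes were higher and 3.51% lower. Tug1 itself had 40.1 TPM in wild-type, 0.885 TPM in Tug1-/- and 1.60 TPM in rescue testes, so the rescue mean stayed far below wild type. Both comparisons of Ltf share the Tug1-/- libraries, with a log2 ratio of 3.12 for Tug1-/- over wild type and -7.88 for rescue over Tug1-/-. For rescue over wild type the log2 ratio of Ltf was -4.76. Whether single animals carried the Tug1-/- mean could not be seen, since only group means were used. S100a8 had 0.0732 TPM in wild-type against 0.704 TPM in Tug1-/- testes and was listed at 0 in rescue testes, and the other members were below 0.5 TPM in all 3 groups. Elane, Prtn3, Ngp and Camp, whose ratios were among the highest in spleen, thus had few transcripts in testes in any group.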

How the data were processed

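The authors mapped 101-base paired-end reads of poly(A) libraries to GRCm38 (STAR), assigned unique mappings to GENCODE M16 genes (featureCounts), dropped genes below 3 reads in all replicates, and ran DESeq2 and fdrtool on each comparison. The submitters' processing notes also name CASAVA 1.8.2. The strand setting of the counting is not given in the sources used here. The deposited TPM values are the authors' means per genotype and tissue, and the deposited signal column is a mean read count scaled by size factors over both genotypes of a tissue. The tables also hold the authors' own fold changes, standard errors, test statistics, p-values and significance calls, which were not used. Rows for brain, whose libraries lie outside this series, and 6 libraries of F1 hybrid testes were not used here. Of 52 samples none had a column of its own.

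The log2 ratio was log2((Tug1-/- mean + 0.1)/(wild-type mean + 0.1)), with genes joined by Ensembl identifier. Counts past 1.5-fold used genes of at least 1 TPM in either group. No test was run, because the columns used hold group means, and no interval on depth can be given for the same reason. The 10 members and 14 gene lists were chosen with earlier results of these data known. Named genes are the members, up to 4 genes per list with the largest absolute log2 ratio at 1 TPM or more, lineage and tissue markers, the 5 genes closest in level, and Tug1. The 5 closest in log2 ratio, also planned, are not reported. Lyz2, Cyba, Cybb, Hbb-bs and Alas2 were added after their values were seen. Promoter windows came from RefSeq (GRCm38.p6). Gene positions are those of the tables, and 9 of 10 were the same in GENCODE M21, with Retnlg differing. The counting and ranking steps were tested on simulated data. Python 3.11.15, numpy 2.4.6, pandas 2.3.3 and matplotlib 3.10.9 were used. Alternatives were other pseudocounts, centring, rescaled totals, fold limits and minimum levels.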

Additional observations from a re-analysis of the deposited data

How the results depend on the processing

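Each member kept the sign of its spleen log2 ratio under each of 6 alternatives (pseudocounts of 1 and 0.01 TPM, centring on the median of all genes, and totals rescaled without haemoglobin and immunoglobulin genes, without the 50 most abundant genes other than members, or without the 14 pancreas genes, the last chosen after seeing the data). The median log2 ratio lay between 1.43 and 1.55, the highest value, 1.55, under centring, which by construction adds 0.11 to every gene. The count of 9 higher members was the same under these 6 and with the lower fold limit tried, and was 8 with a limit of 2. The count of lower members was 1 (Retnlg) with that lower limit and 0 otherwise. The share of all genes counted lower depended most on the setting: 2.33% with a pseudocount of 1, 3.22% with centring (chosen after seeing the data; 6.77% were then higher), 8.98% with no minimum and 2.11% with a minimum of 5 TPM. The cause was not tested. A value counted as moved at 0.1 or more on the log2 scale, for want of a spread between replicates. No paired analysis was possible because the tables hold group means only, and for the same reason leaving out a library could not be run. Members below 1 TPM outside spleen and testes had mean scaled counts of at most 20.6, with 1.64 for Ngp in heart, while Ltf in eyes had 266.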

Other observations

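Genes of the other granulocytes did not all lie on the same side in spleen. Of 14 eosinophil, mast cell and basophil genes, 6 were higher past 1.5-fold in Tug1-/- spleen and 0 were lower, where 5.40% and 5.07% of all genes were, and their median log2 ratio was 0.07. Mcpt8, the basophil protease, had means of 2.49 and 7.96 TPM in wild-type and Tug1-/- spleen, and Prss34, a second protease of basophils and mast cells, had 2.89 and 8.75 TPM. Both ratios, 3.20 and 3.03, were close to those of Elane (3.25) and Prtn3 (3.21). The eosinophil granule genes Epx, eosinophil peroxidase, and Ear1, an eosinophil-associated ribonuclease, had 3.88 and 8.03 TPM, and 7.51 and 15.9 TPM. Other genes of the list, named after their values were seen, did not pass 1.5-fold: the granule protein genes Prg3, Cpa3 and Ear2 had ratios of 1.04, 0.936 and 0.914, and the surface receptor genes Ms4a2, Fcer1a, Ccr3 and Siglecf had 0.711, 0.757, 0.792 and 0.804.

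Lcn2, a specific granule gene that epithelia also express, had its highest means in testes, with 219 TPM in wild-type, 342 TPM in Tug1-/- and 159 TPM in rescue testes, above the 44.1 TPM of Tug1-/- spleen. Cd163, a scavenger receptor of macrophages, was past 1.5-fold in spleen with 49.99 and 76.3 TPM, and had 11.3 and 20.4 TPM in heart, 5.09 and 11.2 TPM in eyes, 3.16 and 8.81 TPM in prostate and 1.45 and 3.16 TPM in testes. Its mean was thus higher in Tug1-/- than in wild-type mice in these 5 tissues and in liver (7.46 and 10.7 TPM), and lower in MEFs, where both means were under 0.15 TPM.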
